A study of Mus musculus with 6 samples.

Results

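The matrix metalloproteinases (Mmp genes), the ADAMTS proteases (Adamts genes) and the tissue inhibitors of metalloproteinases (Timp genes) were examined in mouse liver tumors with and without Top1mt, the gene for the mitochondrial DNA topoisomerase. Members were taken by symbol, with earlier results of these data known. The rule was Mmp followed by a number and an optional a or b, Timp followed by a digit, and Adamts followed by a number. This gave 46 of the 30236 genes listed, of which 23 were Mmp, 19 Adamts and 4 Timp genes. The tumors came from male C57BL/6 mice that were either wild type (WT) or lacked Top1mt (Top1mt-/-, labelled KO), with 3 libraries of each genotype. Mice of both genotypes had received the liver carcinogen diethylnitrosamine on day 14 after birth and then carbon tetrachloride, a liver toxin that also scars the organ, for 14 weeks from week 8, so no untreated liver stands beside them. Tumor tissue was taken at the age of 22 weeks. The knockout was in the germ line, and the libraries were made from whole tumor pieces, in which fewer cells of a type and less RNA per cell cannot be told apart. The labels do not say whether the 3 tumors of a genotype came from separate animals, so p-values measure the spread between these libraries.

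Values are the authors' log2 expression values per gene symbol, and a log2 fold change is the KO mean minus the WT mean. Their transform is not named and behaves like a regularized log, which pulls weakly expressed genes toward a common value, so differences of such genes are understated. Read totals, and with them the depth of each library, are unknown. Genes whose mean over the 6 libraries lay above the lowest 25% were tested with limma, and 40 of the 46 members passed that filter. The 6 that did not were Mmp1a, Mmp1b, Mmp10, Mmp20, Adamts18 and Adamts19.

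The log2 value of Top1mt itself was 7.71 in the library labelled WT replicate 1, 5.99 in WT replicate 2 and 8.01 in WT replicate 3, and it was 5.58, 6.41 and 6.32 in KO replicates 1 to 3. The library labelled WT replicate 2 lay below KO replicates 2 and 3, against its label. Every direction given here between the genotypes rests on the labels as they stand. The log2 fold change of Top1mt was -1.13 (exact two-sided permutation test, p = 0.3, where 3 libraries against 3 allow no p below 0.1). It moved to -1.76 when WT replicate 2 was left out and to -0.75 when WT replicate 3 was. Markers of hepatocytes were high in all libraries, with Alb, the gene for albumin, between 20.3 and 21.1. The 7 hepatocyte markers had a median log2 fold change of 0.0085 (4 higher, 3 lower). For 6 endothelial markers the median was 0.10 (5 higher, 1 lower).

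Matrix metalloproteinases are zinc enzymes that cut collagens and other proteins of the extracellular matrix. Most are secreted as inactive proforms, a smaller set is anchored to the cell membrane, and TIMPs block the active site. ADAMTS proteases are secreted relatives that cut proteoglycans, trim procollagens or cleave single plasma and matrix proteins. In scarred liver, hepatic stellate cells and fibroblasts are a main source of gelatinase A (Mmp2), its membrane-bound activator Mmp14 and several TIMPs, whereas macrophages are known for Mmp12 and neutrophils for Mmp8 and Mmp9.

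A run of 10 Mmp genes (Mmp13, Mmp12, Mmp1b, Mmp3, Mmp1a, Mmp10, Mmp8, Mmp27, Mmp20 and Mmp7, in this order) lies within 427 kb of chromosome 9. It holds 3 genes with mean log2 values above 3 that carry AP-1 letters before a start, and others that carry the same letters at values among the lowest in the family. The 120 bases before an annotated start of 3 genes of each kind are shown to compare them, from RefSeq on GRCm38.p6, all on the plus strand and 5′ to 3′. Capitals mark the AP-1 letters TGANTCA and the TATA letters TATAAA. The first 3 (Mmp13, Mmp12 and Mmp7) had measurable transcripts, and the last 3 (Mmp3, Mmp1a and Mmp10) had few or none. They lie at chr9:7272394-7272513, chr9:7347254-7347373, chr9:7691970-7692089, chr9:7445702-7445821, chr9:7464021-7464140 and chr9:7502222-7502341, in the order printed.
Mmp13: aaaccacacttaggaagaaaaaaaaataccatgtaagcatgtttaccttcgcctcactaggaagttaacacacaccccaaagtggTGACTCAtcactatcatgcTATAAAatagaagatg
Mmp12: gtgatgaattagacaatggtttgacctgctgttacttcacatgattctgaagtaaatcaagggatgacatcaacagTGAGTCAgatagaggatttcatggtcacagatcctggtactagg
Mmp7: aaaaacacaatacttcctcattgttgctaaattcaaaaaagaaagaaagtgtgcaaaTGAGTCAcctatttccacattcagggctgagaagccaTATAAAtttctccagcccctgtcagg
Mmp3: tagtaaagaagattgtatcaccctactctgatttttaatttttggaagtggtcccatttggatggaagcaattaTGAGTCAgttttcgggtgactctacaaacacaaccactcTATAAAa
Mmp1a: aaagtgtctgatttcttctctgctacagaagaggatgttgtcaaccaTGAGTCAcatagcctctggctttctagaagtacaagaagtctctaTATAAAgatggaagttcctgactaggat
Mmp10: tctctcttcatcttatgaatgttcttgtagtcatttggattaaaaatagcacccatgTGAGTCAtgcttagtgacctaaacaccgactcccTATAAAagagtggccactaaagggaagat

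The letters TGANTCA are a loose form of the site of AP-1, the Jun and Fos factor. They stood within 250 bases before an annotated start in 8 of the 10 clustered genes, and TATA letters in 7. Mmp20 matched through TGAATCA, whereas the stretches shown hold TGACTCA or TGAGTCA. Both strands were searched, and the motifs TGANTCA and TATAAA share no overlap with each other in the stretches shown. RefSeq promoters were found for 32 of the 46 members, and the AP-1 letters stood in 8 of them (25%), against 6.87% of 16548 genes with a promoter. A gene was counted if any of its promoters held the letters. TATA letters stood in 9 of the 32 (28.1%), against 11.6% of all genes with a promoter. All 8 members with AP-1 letters belonged to the run on chromosome 9, and the other 22 members with a promoter held 0. Coverage was uneven, as all 10 genes of the run had a promoter but only 22 of the other 36 members did. Mmp2, Mmp9 and Adamts6 were among those without one, so the counts cannot show that the letters are particular to the run. The AP-1 letters began 35 bases before the start in Mmp13, 44 in Mmp12, 46 in Mmp3, 63 in Mmp10 and in Mmp7, and 73 in Mmp1a. Mmp8 and Mmp27, both expressed, had neither set of letters in this window, and the same held for the other annotated starts of Mmp12 and Mmp7. A match is a description of the letters and not of a bound site.

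**Figure D1:**
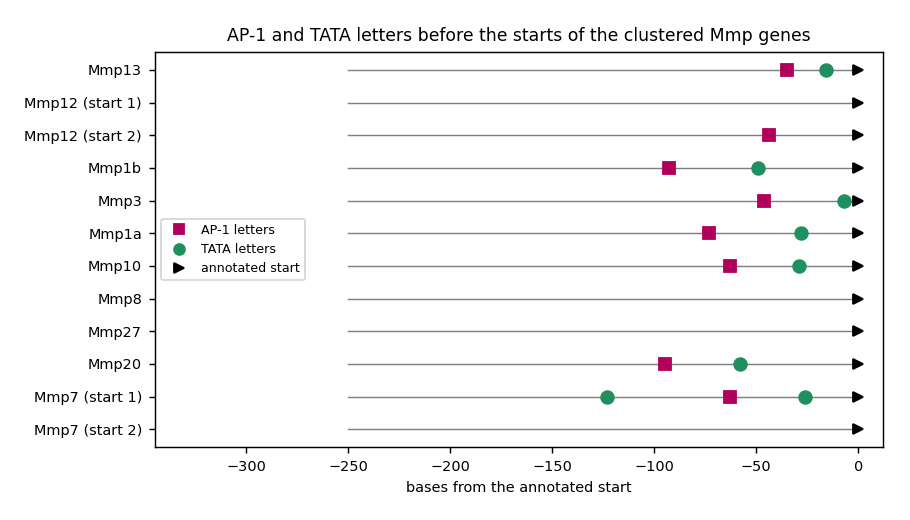
Position of AP-1 letters (squares) and TATA letters (circles) in the 250 bases before each annotated start (triangles) of the 10 Mmp genes of chromosome 9, with the x axis in bases from the start. Mmp8 and Mmp27 show neither, and 7 of the genes show both.

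Within the run, Mmp13 had log2 values of 4.50, 3.10 and 3.39 in WT and 3.49, 3.90 and 4.09 in KO. Mmp3, with AP-1 and TATA letters at similar places, had 0.45, -0.48 and -0.53 in WT and -0.50, -0.60 and -0.69 in KO. These values of Mmp3 sit near the floor of the table apart from WT replicate 1, which was the highest, and without it the log2 fold change of -0.41 was -0.087. Mmp10 lay at -1.62, -1.57 and -1.59 in WT and -1.58, -1.11 and -1.66 in KO, and Mmp1a between -1.82 and -1.73. Mmp1a and Mmp1b, closely related copies whose reads the counting could split, were both at the floor and are uncertain. The 6 clustered genes that could be tested (Mmp13, Mmp12, Mmp3, Mmp8, Mmp27 and Mmp7) had log2 fold changes from -0.91 for Mmp8 to 0.16 for Mmp13.

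Compared per length, the membrane-bound Mmp15 was the most abundant member. Levels per length are log2 values minus the log2 of the length, in kb, of all exons in GENCODE M21, in which all 46 members were found. Mmp15 averaged 7.67 ± 0.44 (SD, n = 6 libraries), followed by Mmp19, a secreted Mmp of broad expression, at 7.54 ± 0.35, and Mmp14 at 7.19 ± 0.31. Mmp15 and Mmp19 differed by less than their spread over libraries, and Mmp19 and Mmp14 by about 1 SD. Next came Adamts1, an aggrecanase, at 6.67 ± 0.32, Timp3 at 6.35 ± 0.37, Timp2 at 6.32 ± 0.61 and Mmp2 at 6.23 ± 1.23. Mmp2 had the largest spread among these 7, and Timp2, Timp3 and Mmp2 lay within 1 SD of one another. The gelatinase Mmp9 stood at 2.82 ± 0.48 and the macrophage elastase Mmp12 at 3.54 ± 0.34 on the same scale.

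**Figure D2:**
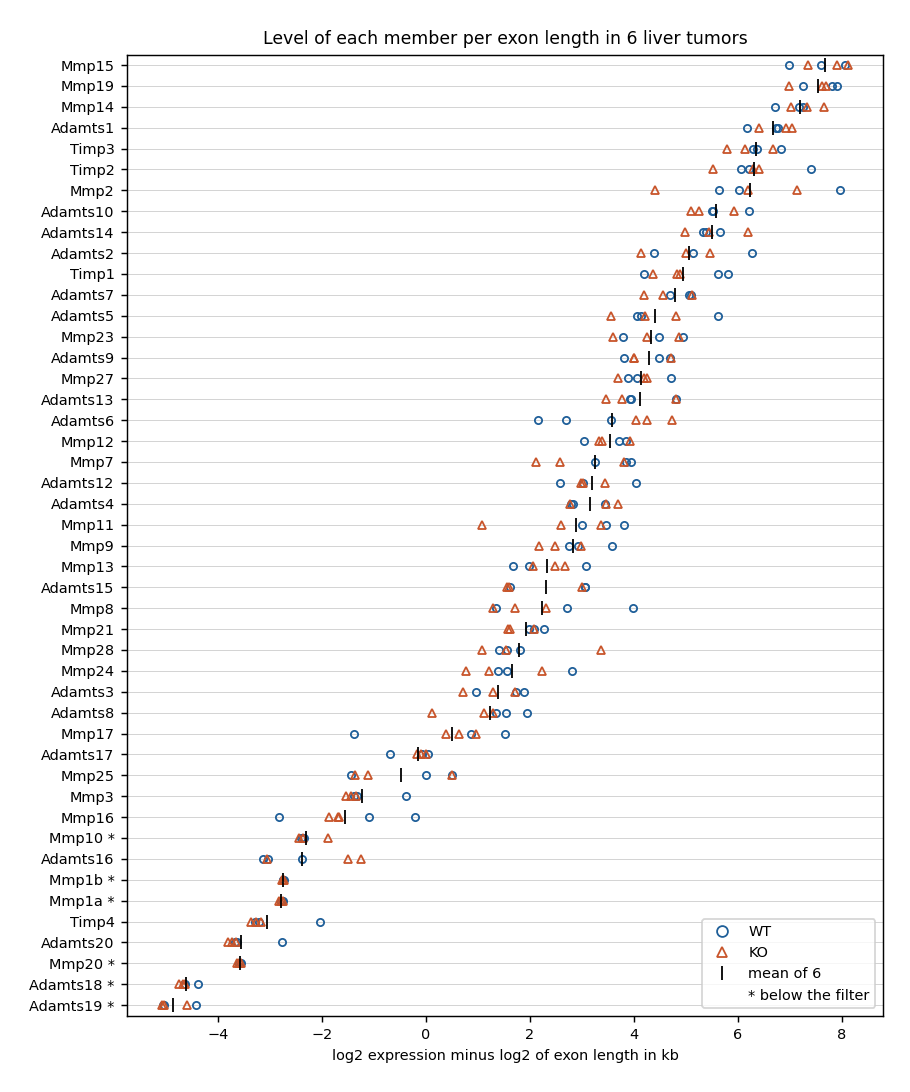
Levels of the 46 members per kb of exon, as log2 values, with circles for the 3 WT libraries, triangles for the 3 KO libraries and a bar for the mean of 6. Mmp15, Mmp19 and Mmp14 stand at the top, and the 6 members below the filter (asterisks) stand near the bottom.

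None of the members passed the genotype test. By limma, 0 of 40 members had an adjusted p under 0.05, as did 0 of 22677 genes (0%), and the smallest adjusted p of a member was 0.987. At an unadjusted p under 0.05 there was 1 member of 40, against 985 genes (4.34%) over the whole table. That member was higher in KO, as were 1.79% of genes, and 0 members were lower, as were 2.56% of genes. The 3 KO values lay wholly above or below the 3 WT values in 2 of 40 members (Adamts6 and Adamts8), against 8.28% of genes. Adamts6 lay above (3.95% of genes did) and Adamts8 below (4.33% of genes). Neither share exceeded that of all genes.

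More members had lower than higher fitted values in KO. The log2 fold change was under 0 in 28 of 40 members, against 52.3% of genes, and its median was -0.31, against -0.015 for all genes. Without WT replicate 1 the median was -0.069 and 21 members were lower, and without KO replicate 1 it was -0.099 and 23 were lower. Without WT replicate 2, where Top1mt went against the label, it was -0.38 and 32 were lower. By family, 13 of 19 Mmp genes, 11 of 17 Adamts genes and 4 of 4 Timp genes were lower, with medians of -0.35, -0.21 and -0.45.

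**Figure D3:**
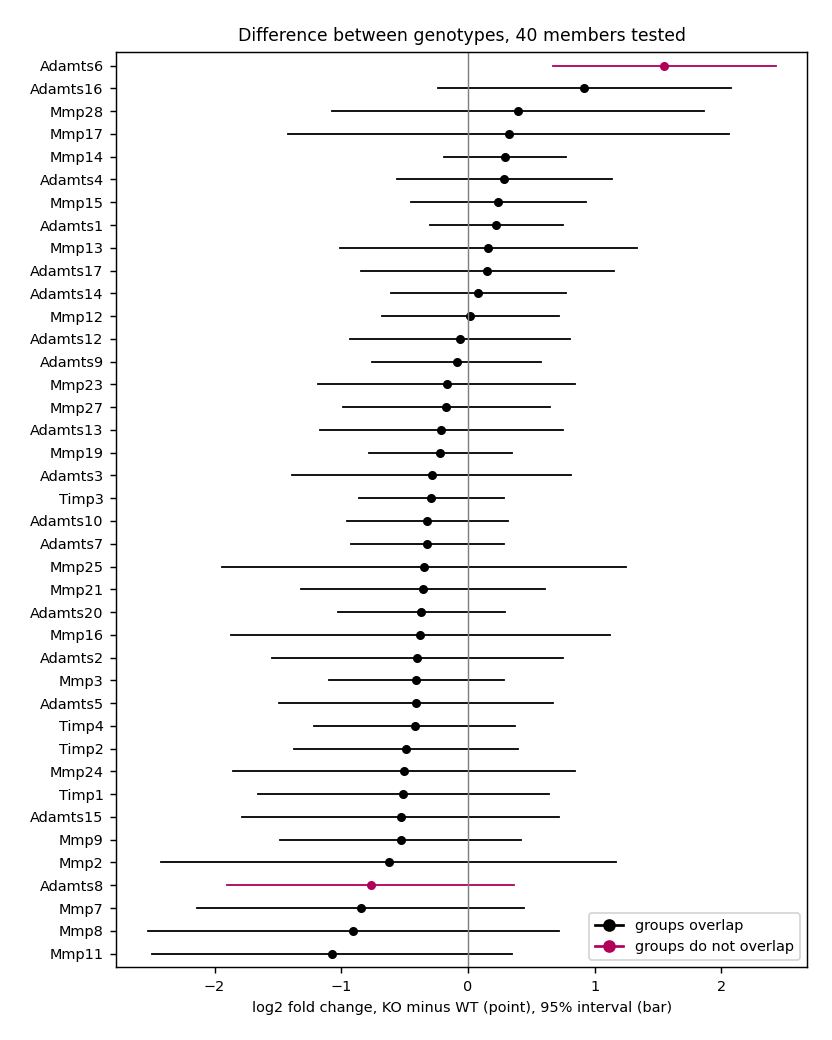
Log2 fold change (KO minus WT, x axis) of the 40 members tested with 95% intervals from limma, sorted by size, and in purple where the groups do not overlap. The interval of Adamts6 lies above 0, and the other 39 include 0.

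The members set 2 libraries apart. WT replicate 1 held the highest value of 18 members (45%), against 17.1% of genes, and KO replicate 1 the lowest of 17 members (42.5%), against 17.1% of genes. Both held for 9 members (22.5%), against 4.67% of genes. The 9 were Mmp2, Mmp11, Mmp23, Timp2, Timp3, Adamts2, Adamts5, Adamts13 and Adamts15, and this pattern was picked out after the values were seen. KO replicate 1 was the highest library for 0 members, against 18.8% of genes. After quantile normalization or centring each library on its median, the first count was 14 or 15 and the second 15 or 16.

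Markers of stellate cells and fibroblasts moved with these libraries. Of the 10 markers, 8 were highest in WT replicate 1 and 7 were lowest in KO replicate 1. Their summed linear values were 35010, 21290 and 17290 in WT and 16460, 24110 and 15880 in KO, with overlap. Reln, a marker on the list, went the other way in KO replicate 1, with 13.0, 13.3 and 13.0 in WT and 13.5, 11.9 and 12.2 in KO. It made up most of the sum in that library. Lum, the gene for the fibrillar collagen partner lumican, had 10.2, 8.56 and 8.52 in WT and 7.25, 9.36 and 8.42 in KO. Of the list, 9 markers had lower fitted values in KO and 1 a higher value (median log2 fold change -0.45). The part that these cells have in the values of the proteases was not tested.

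**Figure D4:**
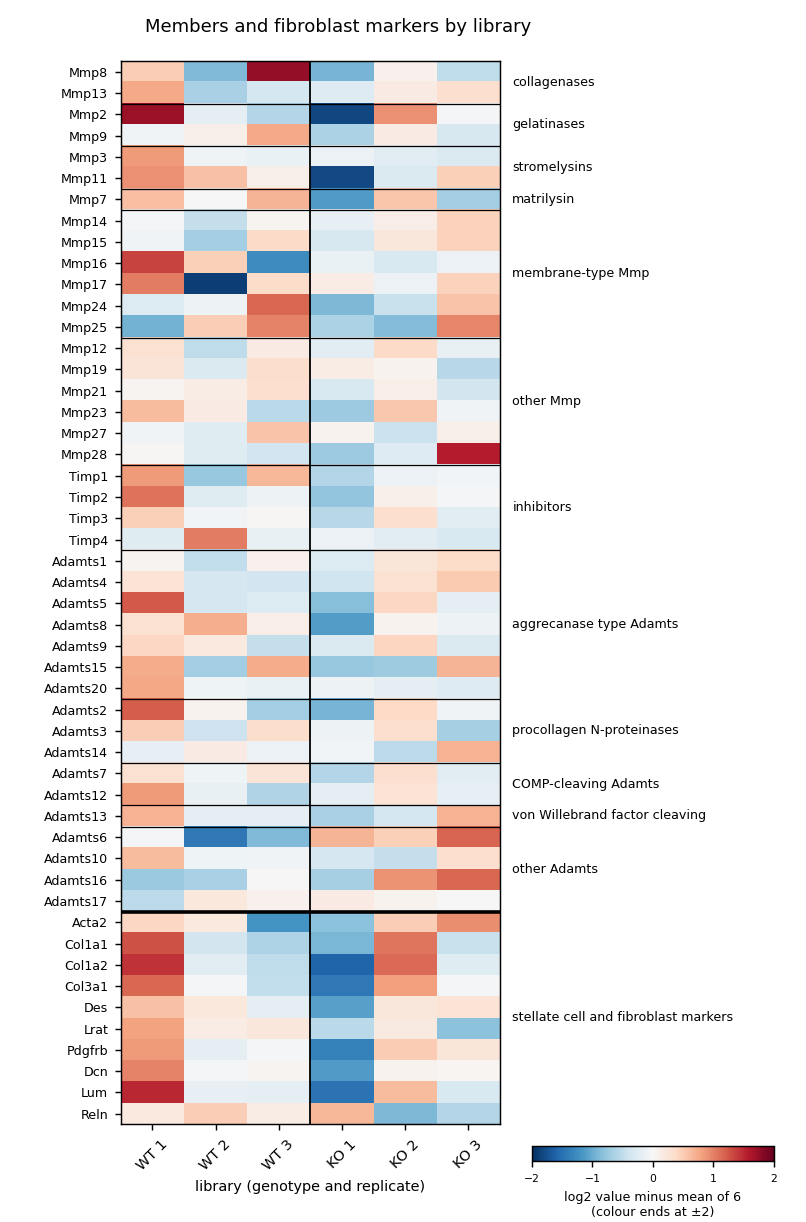
Centred log2 values of the 40 members tested (rows, grouped by role) and of 10 stellate cell and fibroblast markers (below the thick line) in the 6 libraries (columns). The column of WT replicate 1 is mostly red (above the gene's mean) and that of KO replicate 1 mostly blue (below it), in the members as in the markers.

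Adamts6 was the member that differed most. The libraries labelled WT had log2 values of 6.52, 5.11 and 5.66 for it, and those labelled KO 7.22, 7.01 and 7.70. All 3 KO values exceeded all 3 WT values. The means were 5.76 ± 0.71 and 7.31 ± 0.36 (SD, n = 3 each), a log2 fold change of 1.55 ± 0.38 (SE) and a 95% interval from 0.67 to 2.43. Its adjusted p by limma was 0.987, with an unadjusted p of 0.0037. Leaving out 1 library at a time gave 1.22 to 1.93. Adamts6 is a secreted protease known from heart development, and it was neither highest in WT replicate 1 nor lowest in KO replicate 1.

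Adamts8, an aggrecanase-type protease, showed the same separation in the other direction. Its log2 values were 3.74, 4.16 and 3.56 in WT and 2.32, 3.50 and 3.32 in KO. The highest KO value lay just under the lowest WT value, and KO replicate 1 was the lowest. Its log2 fold change was -0.77 ± 0.49 (SE), for which limma gave an adjusted p of 0.999. The groups overlapped after quantile normalization and after median centring, and without KO replicate 1 the fold change was -0.41. Its neighbour on chromosome 9, Adamts15, had 6.44, 4.99 and 6.44 in WT and 4.93, 4.98 and 6.37 in KO, with overlap and a log2 fold change of -0.53, which ranged from -1.01 without WT replicate 2 to -0.28 without KO replicate 1.

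**Figure D5:**
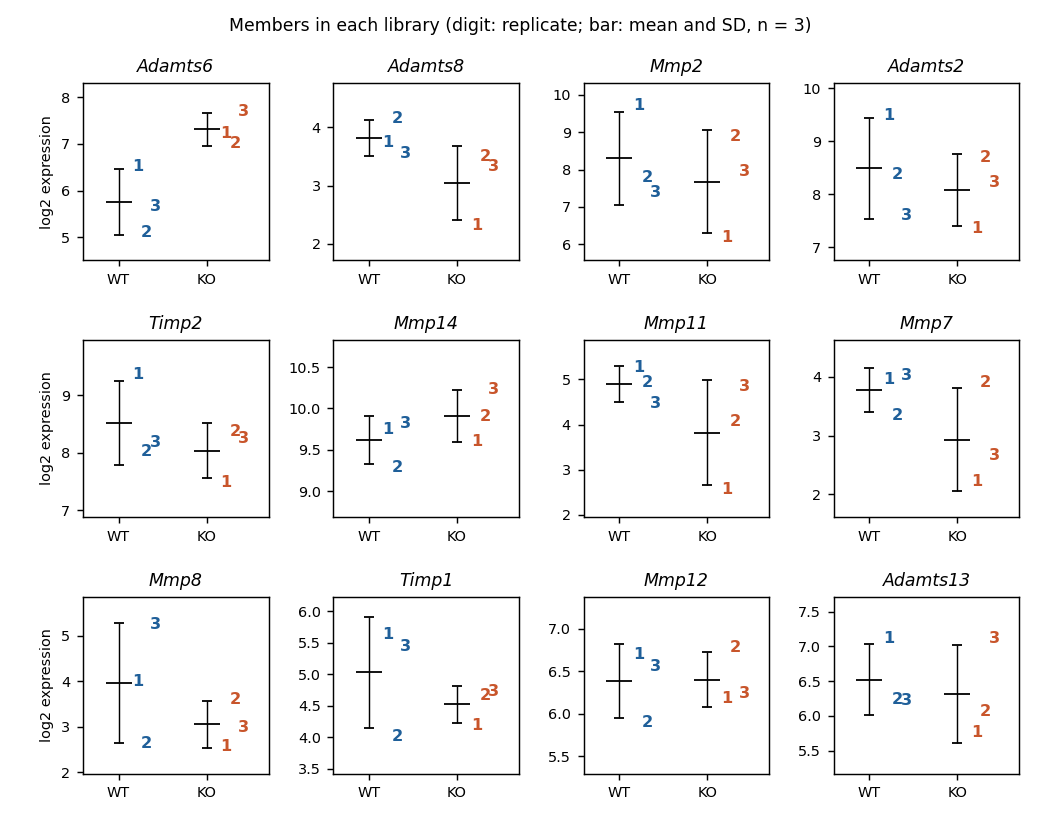
Log2 values of 12 members in each library, each digit naming the replicate, with the mean and SD of 3 libraries per genotype. KO lies above WT in Adamts6 and narrowly below in Adamts8, and the other 10 overlap.

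Among collagenases, which open the triple helix of fibrillar collagen, Mmp8 and Mmp13 could be tested. Mmp8, the neutrophil collagenase, had 3.99, 2.63 and 5.26 in WT and 2.57, 3.59 and 2.99 in KO. WT replicate 3 was the highest and the groups overlapped, with a log2 fold change of -0.91 ± 0.70 (SE). Without WT replicate 3 that was -0.26, and without WT replicate 2 it was -1.57. The sum of neutrophil markers was highest in the same library: the summed linear values were 306.6, 564.4 and 1001 in WT and 227.4, 229.3 and 377.6 in KO. Single markers differed, as Mpo and Elane were highest in WT replicate 2. WT replicate 1 had the lowest of the WT sums, although its Mmp8 value was above those of all KO libraries. All 9 of these markers were lower in KO (median log2 fold change -1.004), and S100a8 had 6.51, 7.35 and 8.30 against 5.89, 5.42 and 6.67, with an adjusted p by limma of 0.999. The part of neutrophils in Mmp8 or Mmp9 was not tested. Mmp13, which mouse tissue uses as its main interstitial collagenase, had a log2 fold change of 0.16 ± 0.51 (SE).

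The gelatinases cut denatured collagen. Mmp2 had log2 values of 9.72, 7.78 and 7.40 in WT and 6.16, 8.89 and 7.96 in KO, the widest range of all members tested (3.55). WT replicate 1 was highest and KO replicate 1 lowest, as for most of the fibroblast markers. Its log2 fold change was -0.63 ± 0.78 (SE), and it turned to 0.083 without WT replicate 1 and to 0.13 without KO replicate 1. Mmp9 had 4.57, 4.75 and 5.40 in WT and 4.002, 4.81 and 4.31 in KO, with a log2 fold change of -0.53 ± 0.41 (SE). The groups overlapped, and WT replicate 3, where the sum of neutrophil markers was highest, had its highest value. Without that library the fold change was -0.28, and without KO replicate 1 it was -0.35.

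Of the genes grouped as stromelysins, Mmp10 was below the filter. Mmp11, which is known from the stroma around carcinomas, had 5.27, 4.94 and 4.47 in WT and 2.55, 4.07 and 4.84 in KO. KO replicate 1 stood below all others, and the log2 fold change of -1.08 ± 0.61 (SE) became -0.44 without it. Mmp7, or matrilysin, an enzyme of glandular epithelia, had 3.95, 3.34 and 4.03 in WT and 2.21, 3.90 and 2.66 in KO. The groups overlapped through KO replicate 2, and the log2 fold change was -0.85 ± 0.56 (SE), which was -1.33 without that library and -0.49 without KO replicate 1. Among bile duct markers, of which 0 passed an adjusted p under 0.05, Krt19, a keratin of bile ducts, had 6.11, 4.75 and 6.93 in WT and 2.86, 4.38 and 2.502 in KO, a log2 fold change of -2.68 with an adjusted p by limma of 0.987. The 6 bile duct markers had a median of -0.94 (2 higher, 4 lower), and Krt19 was the lowest of them. Of the 4 lower markers 2 were without overlap, where 4.33% of all genes were lower in KO without overlap. The 2 higher were Sox9 (log2 fold change 0.15) and Spp1 (0.045). Summed linear values of the 6 were 6308, 4592 and 3083 in WT and 4198, 3339 and 6128 in KO. Most of each sum was Spp1, with log2 values between 11.3 and 12.6, so the sums say little of the other markers. The part of bile duct cells in Mmp7 was not tested.

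The membrane-type enzymes were divided, with 3 higher and 3 lower in KO. Mmp14, which activates pro-Mmp2 at the cell surface, had 9.74, 9.29 and 9.82 in WT and 9.60, 9.90 and 10.2 in KO, with a log2 fold change of 0.30 ± 0.21 (SE). Its values spanned less than those of Mmp2, and KO replicate 1 was not its lowest library. Mmp17 was low in WT replicate 2 alone, with 4.24, 1.34 and 3.60 in WT and 3.37, 3.10 and 3.68 in KO. Without that library its log2 fold change of 0.32 became -0.54. Mmp16 had 2.91, 2.02 and 0.29 in WT and 1.42, 1.25 and 1.44 in KO, and all KO values sat within the WT range. Mmp24 had a log2 fold change of -0.51 ± 0.58 (SE), which was -0.060 without WT replicate 3, -0.19 without KO replicate 1 and -0.92 without KO replicate 3.

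Of the remaining Mmp genes that were tested, 2 were higher and 4 lower in KO. Mmp28, or epilysin, had 3.77, 3.51 and 3.37 in WT and 3.02, 3.49 and 5.32 in KO. KO replicate 3 stood apart, and without it the log2 fold change of 0.39 was -0.29. Mmp21 had a log2 fold change of -0.36 ± 0.42 (SE). Mmp12 was chosen after its values were seen, for its known source in macrophages. Its log2 values of 6.70, 5.89 and 6.56 in WT and 6.19, 6.78 and 6.24 in KO gave a log2 fold change of 0.017, with a 95% interval from -0.68 to 0.72. The summed macrophage markers were 8677, 6186 and 12150 in WT and 5829, 8440 and 8649 in KO, and of 7 such markers 2 were higher and 5 lower, with a median log2 fold change of -0.18.

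All 4 Timp genes had lower fitted values in KO, and none passed the test. Timp1, the inducible inhibitor, had 5.63, 4.02 and 5.45 in WT and 4.19, 4.66 and 4.72 in KO, with a log2 fold change of -0.51 ± 0.50 (SE). WT replicate 2 was the lowest of its 6 libraries, and without it the fold change was -1.02, against -0.21 without WT replicate 1. Timp2, which both inhibits Mmp2 and takes part in its activation, had 9.36, 8.03 and 8.18 in WT and 7.49, 8.38 and 8.25 in KO. Its highest and lowest libraries were those of Mmp2, and its log2 fold change was -0.49 ± 0.38 (SE), which was -0.068 without WT replicate 1, -0.21 without KO replicate 1 and -0.73 without WT replicate 2. Timp3, which binds to the matrix and also inhibits ADAMTS aggrecanases, had 9.85, 9.32 and 9.39 in WT and 8.82, 9.71 and 9.16 in KO, with a log2 fold change of -0.29 ± 0.25 (SE). That of Timp3 was -0.086 without KO replicate 1, -0.13 without WT replicate 1 and -0.53 without KO replicate 2. Timp4 was near the floor in 5 libraries and at 0.51 in WT replicate 2, and without that library its log2 fold change of -0.42 was -0.018.

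Differences between an enzyme and its inhibitor within a library were compared for 4 pairs chosen after the values were seen. Mmp14 minus Timp2 on the log2 scale gave 0.38, 1.26 and 1.64 for the WT libraries and 2.12, 1.53 and 1.98 for the KO libraries. The KO mean was higher by 0.78, with overlap (exact two-sided permutation test, p = 0.2, Benjamini-Hochberg adjusted 0.8). For Mmp2 minus Timp2 the KO minus WT difference was -0.14, for Mmp9 minus Timp1 -0.023 and for Adamts5 minus Timp3 -0.12, with exact permutation p of 0.9, 1 and 0.8. With 3 libraries against 3, no exact p below 0.1 was possible, so none of the 4 pairs could pass a threshold of 0.05, and these p-values do not show that the genotypes are alike.

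The aggrecanase-type ADAMTS proteases cut aggrecan and versican. The median over their 7 genes was a log2 fold change of -0.37 (2 higher, 5 lower). Adamts5, the neighbour of Adamts1 within 108 kb of chromosome 16, had 9.05, 7.50 and 7.56 in WT and 6.98, 8.25 and 7.65 in KO. Its profile had the extremes of Mmp2, whereas Adamts1 had 9.14, 8.59 and 9.17 in WT and 8.81, 9.33 and 9.44 in KO, and the neighbours differed in which libraries were high. Adamts1 and Adamts5 fall outside the rule for named genes and were chosen for this position.

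Procollagen N-proteinases trim the amino end of fibrillar procollagens. Adamts2 had 9.50, 8.37 and 7.61 in WT and 7.36, 8.69 and 8.22 in KO, and without WT replicate 1 its log2 fold change of -0.40 was 0.10. Adamts3 had a log2 fold change of -0.29 ± 0.48 (SE), and values with 1 library left out ran from -0.56 without WT replicate 2 to -0.025 without KO replicate 3. Of the pair that cuts cartilage oligomeric matrix protein, Adamts7 had a log2 fold change of -0.32 ± 0.26 (SE) and Adamts12 one of -0.062 ± 0.38. That of Adamts7 was -0.11 without KO replicate 1 and -0.57 without KO replicate 2. Adamts13, which cuts von Willebrand factor and is made by hepatic stellate cells, had 7.12, 6.24 and 6.22 in WT and 5.77, 6.06 and 7.12 in KO, with overlap. Beside Adamts6, the highest log2 fold change was that of Adamts16, at 0.92 ± 0.50 (SE), with -0.37, -0.26 and 0.39 in WT and -0.28, 1.27 and 1.52 in KO. KO replicates 2 and 3 were its highest libraries, and KO replicate 1 lay within the WT range. Adamts16 was weakly expressed, and its values in WT replicates 1 and 2 and KO replicate 1 sat near the floor of the table. Without KO replicate 1 the fold change was 1.48, and without KO replicate 3 it was 0.57.

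Other genes of the pathway were counted from hand-written lists, and 0 passed an adjusted p under 0.05 by limma. Of 11 listed non-TIMP inhibitors and membrane regulators 10 were found, and 4 were higher and 6 lower in KO. Bsg, a membrane regulator and not an inhibitor, was among the higher (log2 fold change 0.21). Of 10 genes listed as activating proteases 9 were found. Most code for enzymes that free Mmp proforms or act upstream of those that do, whereas Plaur codes for a receptor. These 9 divided 5 to 4, and the 7 ADAM sheddases 2 to 5. St14, the gene for matriptase, was the one activator with an unadjusted p under 0.05, at a log2 fold change of -1.43 (limma adjusted p 0.999). The 6 ADAMTS-like genes, which code for related proteins without protease activity, divided 1 to 5, and 4 of them were highest in WT replicate 1. Adamtsl5 had 7.13, 7.83 and 6.66 in WT and 6.19, 5.64 and 5.85 in KO, without overlap, a log2 fold change of -1.31 (limma adjusted p 0.987). Of 19 inducers and transcription factors, 6 were higher and 13 lower, and the ETS factor Etv4 had a log2 fold change of -1.15 at an unadjusted limma p of 0.026 (adjusted 0.999).

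Several members share their place with another gene, and the use of strand in counting is not stated. Among these, Timp1 overlaps Syn1, Timp3 overlaps Syn3 and Timp4 overlaps Syn2. Mmp11 overlaps Chchd10, Mmp12 overlaps Mmp1b and Mmp19 overlaps Tmem198b. Each of these lies on the opposite strand in GENCODE M21, whereas Timp2 overlaps Cep295nl on the same strand. Using strand would not separate reads from bases that Timp2 and Cep295nl share. Reads from the opposite strand cannot be told apart in these values if strand was not used.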

How the data were processed

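Liver tumor RNA of 3 WT and 3 Top1mt-KO libraries was grouped by the genotype and replicate number in the labels. The authors deposited log2 expression values for 30236 gene symbols. The paper's methods name BWA and a genome called Mm 8, whereas the submitters' processing notes name bcl2fastq 2.17, Trimmomatic 0.36, STAR 2.5.1, Subread, DESeq2 and GRCm38. The 3 columns without a name held leftover cells and were not used. Genotypes were compared over 22677 genes with limma 3.58.1 in R 4.3.3 (lmFit, eBayes with trend, Benjamini-Hochberg adjustment). Counts were not used, so no depth or counting error is given. Members and lists were chosen with earlier results of these data known. Genes named are Top1mt, members with an unadjusted p under 0.05 or groups that do not overlap, all Timp genes, the 2 largest fold changes per role and the 5 largest ranges. Mmp1a, Mmp10, Mmp12, Mmp14, Mmp15, Mmp19, Mmp27, Adamts1, Adamts5 and single cell type markers were named after their values were seen. Alternatives were quantile normalization, median centring, no trend, 2 other filters, a replicate block and libraries left out. The procedure was tested on simulated data. The replicate numbers did not pair the libraries. Motifs and lengths came from RefSeq promoters (GRCm38.p6) and GENCODE M21. Protein sequences were not used here.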

Additional observations from a re-analysis of the deposited data

How the results depend on the processing

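Of 334 values of 26 named genes under 13 alternatives, 321 kept their direction and 13 did not. Fitting without trend, the 2 other filters and the replicate block cannot change a fold change, so their values kept direction by construction. All 13 reversals came from leaving libraries out, so the share that kept direction does not measure stability. With 1 library left out at a time, the log2 fold changes of these genes ranged from -0.38 to 0.35 for Adamts12, -0.61 to 0.088 for Adamts13, -0.84 to 0.10 for Adamts2, -0.12 to 0.58 for Mmp13, -1.10 to 0.21 for Mmp16, -0.54 to 0.91 for Mmp17, -1.24 to 0.13 for Mmp2 and -0.29 to 0.86 for Mmp28. Without WT replicate 2 and KO replicate 1 together, Mmp17 was -0.53. Members whose groups do not overlap numbered 1 after quantile normalization (8.4% of genes), 1 after median centring (8.7%), 4 to 8 with 1 library left out, where fewer values have to separate (15.9% to 21.5% of genes then did), and 14 without WT replicate 2 and KO replicate 1 (33.6% of genes). Members at an unadjusted p under 0.05 numbered 1 to 4 with 1 library left out (3 without WT replicate 2, against 4.62% of genes, 2 without KO replicate 1, against 5.97%, 4 without KO replicate 2, against 4.5%, and 2 without KO replicate 3, against 3.79%) and 2 without that pair, against 5.96%. Genes past an adjusted p of 0.05 by limma numbered 4 with no filter on low values and 0 to 1 with 1 library left out, and 0 members passed under any of these. The cause was not tested. Libraries with the same replicate number did not deviate together (correlations -0.12, -0.076 and 0.052), and with the replicate block 0 genes passed and 1 member had an unadjusted p under 0.05. Since depth is unknown, no detection limit can be given for any member.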
